A study of Mus musculus with 47 samples.

Results

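The daily rhythm of each transcript in mouse ileum, the part of the small intestine next to the colon, was set against its rhythm in duodenum, the part next to the stomach. All 47 of the 47 RNA-sequencing libraries of the series entered the comparison, 23 of ileum and 24 of duodenum. The mice were C57BL/6J males aged 15 to 16 weeks fed ad libitum. They were germ-free (GF), kept without microbes, or convR, raised with a normal flora. Tissue was taken at ZT 2, 6, 10, 14, 18 and 22, where zeitgeber time (ZT) counts the hours of the light-dark cycle. There were 11 GF and 12 convR libraries of ileum and 12 GF and 12 convR libraries of duodenum, with 2 libraries at each time except 1 of GF ileum at ZT2. A cosine with a period of 24 h was fitted in each tissue, with a separate mean for each tissue and flora, and a single test per gene asked whether the curve of the ileum differed from that of the duodenum.

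The circadian clock of mammalian cells is a transcriptional feedback loop. BMAL1 (gene Arntl) and its partners CLOCK or NPAS2 bind E-box sequences and activate the Period and Cryptochrome genes, whose proteins then repress BMAL1 activity. A second loop through the nuclear receptors REV-ERB (Nr1d1, Nr1d2) sets the rhythm of Arntl itself, and the PAR bZIP factors DBP, TEF and HLF carry the rhythm to further genes through D-box sequences. In the intestine the clock and the time of feeding are both known to drive daily changes in nutrient transporters and in cell renewal.

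Total counts, in megacounts (M), ran from 24.9 to 41.9 M in ileum libraries, with a median of 31.3 M, and from 22.5 to 41.1 M in duodenum libraries, with a median of 32.7 M. Levels are in CPM, the count of a gene divided by the size of its library in M after edgeR's TMM scaling. The tissue labels were checked against marker lists. The mean of 8 proximal markers (Pdx1, Gata4, Gip and others) ran from 5.51 to 58.8 CPM in ileum libraries and from 168 to 687 CPM in duodenum libraries. The mean of 7 distal markers (Fabp6, Slc10a2 and others) ran from 138 to 1147 CPM in ileum and from 15.5 to 153 CPM in duodenum. The proximal list therefore separated the tissues in all libraries, and the distal list left a narrow overlap. By a rule on pancreas and stomach markers, TMM factors and Fabp6, 9 libraries stood apart, 2 of 23 in ileum and 7 of 24 in duodenum. In duodenum 2 of these were taken at ZT6, 2 at ZT14 and 3 at ZT22, so they were not spread evenly over the day. The mean of 13 pancreas markers reached 6.88 CPM at most in ileum, against 826 CPM in duodenum, and that of 4 stomach and Brunner gland markers reached 0.366 CPM in ileum, against 3500 CPM in duodenum. Results are given with and without these libraries where leaving them out changed them.

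Among 19000 genes tested, 431 (2.27%) passed the test for a rhythm in ileum and 1923 (10.1%) passed it in duodenum, at an adjusted p under 0.05 in edgeR's quasi-likelihood test. In both tissues 289 genes (1.52%) passed, which is 67.0% of the ileum calls and 15.0% of the duodenum calls. With each tissue fitted alone, on its own libraries, scaling and genes, 663 of 18082 genes (3.67%) passed in ileum and 1026 of 17986 (5.70%) in duodenum. In those fits the median dispersion, the relative variance between libraries beyond counting noise, was 0.0285 in ileum and 0.0516 in duodenum. The fit on all libraries used the same dispersion per gene for both tissues. Its calls and errors in each tissue rest on that shared spread. The test of the difference between the curves was passed by 2 genes (0.0105%), Itpr1 and Arsg, while 868 genes (4.57%) had an unadjusted p under 0.05. Both were rhythmic in duodenum and missed the threshold in ileum. No gene passed in ileum with a tested loss in duodenum, and no gene that passed in both tissues had a tested shift or change in size. These are bulk samples, in which fewer cells of a type and less RNA per cell cannot be told apart.

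Itpr1 (ENSMUSG00000030102, mm10 chr6:108213096-108551109, plus strand) encodes an inositol trisphosphate receptor, a calcium channel of the endoplasmic reticulum. Its level in 23 ileum libraries was 42.5 CPM at the lowest, 55.5 CPM at the median and 75.6 CPM at the highest, against 50.8, 92.8 and 163 CPM in 24 duodenum libraries. In ileum the means by time lay between 52.0 ± 8.87 CPM at ZT14 (SD, n = 4) and 64.6 ± 11.3 CPM at ZT2 (SD, n = 3). In duodenum they lay between 63.3 ± 12.7 CPM at ZT10 and 138 ± 20.96 CPM at ZT22 (SD, n = 4 each). The tissues overlapped at ZT10, with 43.9 to 66.3 CPM in ileum and 50.8 to 75.8 CPM in duodenum, and were apart at ZT22, with 51.7 to 65.2 CPM in ileum and 111 to 160 CPM in duodenum. The fitted peak-to-trough range was 0.22 ± 0.10 log2 in ileum and 1.199 ± 0.09 log2 in duodenum (SE, as for all ranges and peak times), with the duodenum peak at ZT22.4 ± 0.29 h. The rhythm in ileum missed the threshold with an adjusted p of 0.422, and the difference between the curves had an adjusted p of 5.82e-05 in edgeR's test.

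Arsg (ENSMUSG00000020604, mm10 chr11:109473374-109573330, plus strand) encodes arylsulfatase G, a lysosomal sulfatase. Its level was 2.82 CPM at the lowest, 5.40 CPM at the median and 7.55 CPM at the highest in ileum, against 8.09, 22.6 and 39.0 CPM in duodenum, so no library of ileum reached the lowest of duodenum. The means by time lay between 3.94 ± 1.08 CPM at ZT18 and 6.76 ± 0.80 CPM at ZT6 in ileum, and between 9.75 ± 1.24 CPM at ZT10 and 31.6 ± 3.88 CPM at ZT2 in duodenum (SD, n = 4 each). At ZT6, when the ileum was at its highest, the duodenum was at 16.7 ± 4.79 CPM, between its levels at ZT2 and ZT10. The peak-to-trough range was 0.53 ± 0.19 log2 in ileum (adjusted p = 0.263 for a rhythm) and 1.75 ± 0.18 log2 in duodenum, with the peak at ZT22.5 ± 0.38 h. The difference between the curves had an adjusted p of 5.82e-05. Arsg shares 225 bases with Slc16a6, a monocarboxylate carrier gene on the opposite strand. Slc16a6 averaged 60.7 CPM over all libraries, with 15.7 CPM in ileum and 103.9 CPM in duodenum, so like Arsg it was higher in duodenum. The sources used here do not say whether the counting used the strand. Slc16a6 also had a rhythm in duodenum (adjusted p = 0.00378, peak at ZT20.8) and missed the threshold in ileum (adjusted p = 0.626), and its curves did not pass the test of a difference (adjusted p = 0.484). How far reads of one gene were counted for the other was not tested.

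Each flora group was also fitted alone. The peak-to-trough range of the difference between the curves of Itpr1 was 1.06 log2 in GF and 0.99 log2 in convR libraries, and that of Arsg was 1.88 log2 in GF and 2.14 log2 in convR libraries. In these smaller fits neither gene passed, with adjusted p-values of 0.117 in GF and 0.893 in convR for Itpr1 and of 0.509 in GF and 0.340 in convR for Arsg. Of the 4 duodenum libraries at ZT22, where both genes were high, 3 stood apart. Without the 9 libraries the sizes were 1.03 log2 for Itpr1 and 2.24 log2 for Arsg, with adjusted p-values of 0.0011 and 0.000604.

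**Figure D1:**
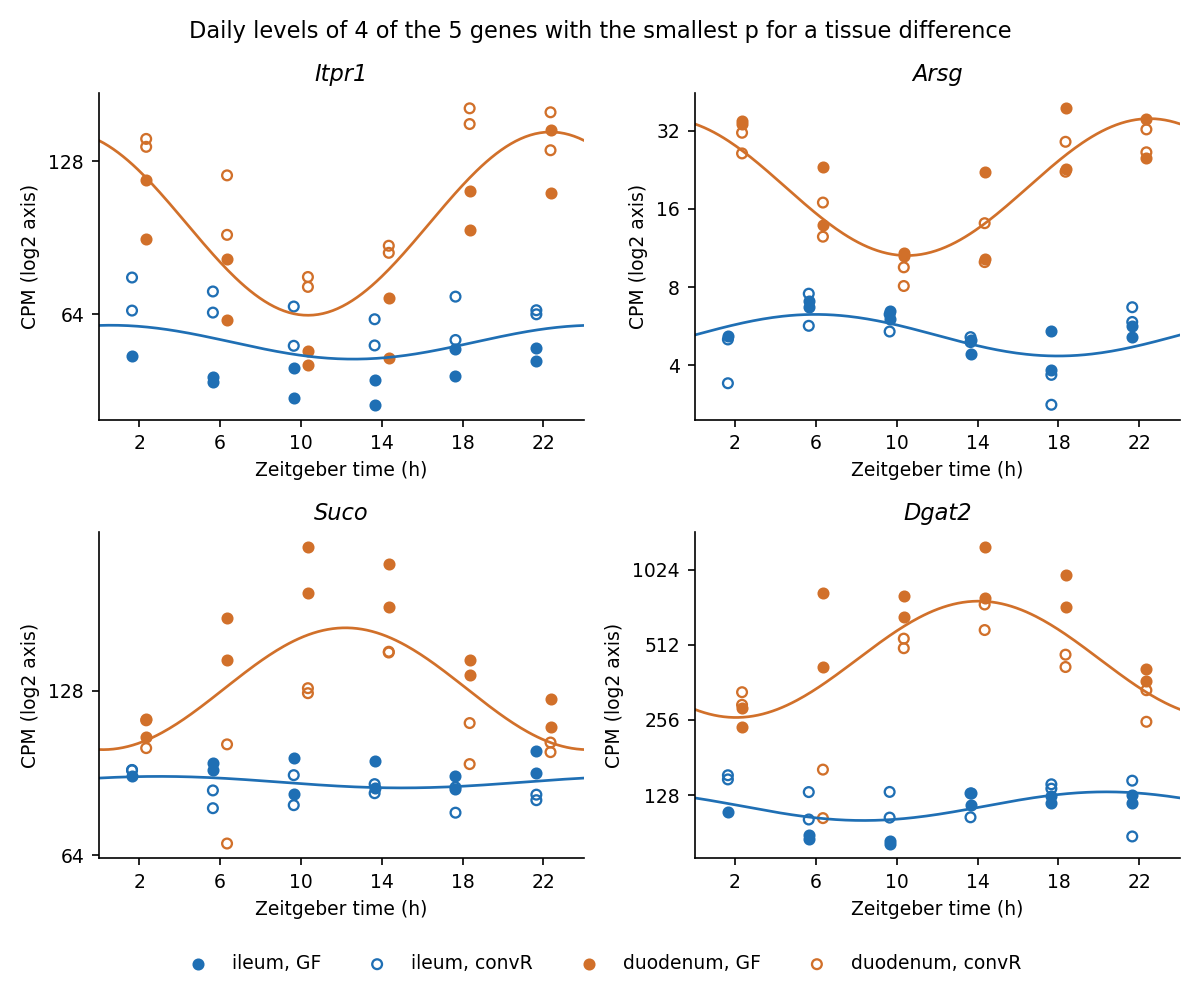
CPM (log2 axis) of Itpr1, Arsg, Suco and Dgat2 in each library by zeitgeber time, ileum in blue and drawn left of duodenum in orange, GF filled and convR open; lines are the fitted 24 h cosines around the mean of each tissue. The ileum curves of Itpr1 and Arsg have ranges of 0.22 and 0.53 log2, and the duodenum curves of 1.199 and 1.75 log2.

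The next 10 genes by p did not pass over all genes, and for them the values are given as a description. Suco, which encodes a protein of the endoplasmic reticulum, stayed between means of 84.0 ± 5.36 CPM at ZT18 and 90.9 ± 1.35 CPM at ZT2 in ileum, while duodenum means ran between 108 ± 6.38 CPM at ZT2 and 176 ± 32.1 CPM at ZT14 (SD, n = 3 for ileum at ZT2, otherwise 4). Its adjusted p for the difference was 0.0570. Dgat2, which makes the last step of triglyceride synthesis, had means of 100 ± 23.3 CPM at ZT10 and 137 ± 23.7 CPM at ZT2 in ileum as its extremes, against 288 ± 36.9 CPM at ZT2 and 846 ± 291 CPM at ZT14 in duodenum (adjusted p = 0.0899). Without the libraries that stood apart both passed, Suco with an adjusted p of 0.0365 and Dgat2 with 0.0231, and 13 genes passed in all. All 13 were rhythmic in duodenum and missed the threshold in ileum.

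Of the others, Bok, a member of the BCL-2 family, was rhythmic in both tissues, with ranges of 1.43 ± 0.17 log2 in ileum and 2.18 ± 0.17 log2 in duodenum and peaks at ZT0.65 in ileum and ZT22.5 in duodenum (adjusted p for the difference = 0.0787). Marcksl1, which encodes an actin-binding protein, peaked at ZT19.7 in ileum and at ZT13.9 in duodenum, the widest gap in peak time among the 289 genes that passed in both tissues (5.76 ± 1.18 h, adjusted p for the difference = 0.164). Ier5, an immediate early gene, had the larger range in ileum, 1.24 ± 0.12 log2 against 0.61 ± 0.12 log2 in duodenum (adjusted p = 0.363). In Nudt1, Abca2, Nos2 and Hdac10 the larger range was in duodenum, with adjusted p-values from 0.304 to 0.363. The range of 4.96 ± 0.89 log2 of Nos2 in duodenum leaned on 1 convR library at ZT10 with 715 CPM, where the median of the 24 was 1.53 CPM. Without that library the size of its difference between the curves was 3.24 log2.

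Most clock genes were rhythmic in both tissues. Of 29 genes on 3 clock lists, all tested, 21 passed in ileum, 24 passed in duodenum, and the same 21 passed in both. None passed the test of a difference, although 8 had an unadjusted p under 0.05. Of all genes tested, 2.27% passed in ileum, 10.1% in duodenum and 1.52% in both, and 4.57% had an unadjusted p under 0.05 for the difference. The medians of the 29 were 1.33 log2 in ileum and 1.21 log2 in duodenum for the peak-to-trough range, against 0.20 log2 in ileum and 0.24 log2 in duodenum over all genes tested. Promoters of 4 of these genes are shown because they hold E-box or D-box letters, which clock factors are known to bind. Each runs from 250 bases before to 50 bases after the RefSeq start in GRCm38.p6, on the strand of the gene, with E-box (CACGTG) or D-box (TTATGTAA or its reverse complement TTACATAA) letters in capitals.
Ciart (chr3:95882179-95882478, minus strand): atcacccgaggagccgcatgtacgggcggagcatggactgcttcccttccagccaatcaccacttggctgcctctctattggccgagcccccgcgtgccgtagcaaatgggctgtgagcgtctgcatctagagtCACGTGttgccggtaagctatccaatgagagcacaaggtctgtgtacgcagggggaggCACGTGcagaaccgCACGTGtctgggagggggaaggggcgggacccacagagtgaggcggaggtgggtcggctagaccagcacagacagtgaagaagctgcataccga
Cry1 (chr10:85185005-85185304, minus strand): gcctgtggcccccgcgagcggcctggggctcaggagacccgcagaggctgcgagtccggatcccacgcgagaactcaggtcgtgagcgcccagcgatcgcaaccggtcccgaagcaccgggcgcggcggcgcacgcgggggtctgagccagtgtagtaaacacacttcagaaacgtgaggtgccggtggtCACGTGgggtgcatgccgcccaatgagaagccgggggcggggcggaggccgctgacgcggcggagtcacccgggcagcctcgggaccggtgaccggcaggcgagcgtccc
Tef (chr15:81802423-81802722, plus strand): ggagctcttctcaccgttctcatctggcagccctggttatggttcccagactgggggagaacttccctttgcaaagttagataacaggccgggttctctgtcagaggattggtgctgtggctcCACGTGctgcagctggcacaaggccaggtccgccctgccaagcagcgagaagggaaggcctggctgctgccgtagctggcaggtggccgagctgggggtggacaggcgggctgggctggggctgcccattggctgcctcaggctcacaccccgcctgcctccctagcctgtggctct
Per3 (chr4:151044616-151044915, minus strand): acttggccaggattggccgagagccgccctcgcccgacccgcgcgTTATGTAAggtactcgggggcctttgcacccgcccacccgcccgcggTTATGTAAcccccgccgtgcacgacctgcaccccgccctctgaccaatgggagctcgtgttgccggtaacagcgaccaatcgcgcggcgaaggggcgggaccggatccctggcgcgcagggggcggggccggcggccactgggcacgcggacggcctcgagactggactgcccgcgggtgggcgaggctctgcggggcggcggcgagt
The Ciart window holds E-box letters at 116, 58 and 44 bases before the start, that of Cry1 at 60 bases and that of Tef at 127 bases, and the Per3 window holds D-box letters at 205 and 158 bases before the start. On either strand CACGTG stood in 7.15% of 32851 RefSeq promoter windows of mouse, and TTATGTAA or TTACATAA in 0.938%. Of the 21 clock genes that passed in both tissues 18 had windows in the table, 22 in all. CACGTG stood in 9 of these windows, from 8 genes, and D-box letters in 2 windows, from 2 genes. Of the 289 genes that passed in both tissues 218 had windows in the table, some of them several. Of these 287 windows 13.6% held CACGTG and 2.09% held D-box letters. These are matches of letters only.

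The fitted peaks of most clock genes came later in ileum than in duodenum. The fitted peak time of the 21 genes was later in ileum in 20, with a median difference of 1.56 h and a range of -0.41 h in Bhlhe41 to 3.001 h in Cry1. The 95% interval of the difference lay above 0 in 11 genes and below 0 in none. These genes are linked and were measured in the same libraries, so their number does not count as replication. The lag of the set was not tested. No single clock gene passed the test of a difference over all genes. The smallest p among the 21 was 0.0025 for Arntl (adjusted p = 0.554). This result changed with equal replicate numbers in ileum and duodenum entered as a block. Per3, Arntl (each 0.000613) and Tef (0.0035) then passed by adjusted p in edgeR's test, as did Dbp (0.0283) with convR libraries alone. The numbers were not shown to pair the samples. The peak-to-trough range had a median of 1.90 log2 in ileum and 2.33 log2 in duodenum and a median ratio of 0.871, and in no gene did the 95% interval of its difference exclude 0. Leaving out any 1 of the 47 libraries gave a median phase difference of 1.38 to 1.79 h, and leaving out the 9 that stood apart gave 1.34 h.

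Arntl, the activator at the head of the loop, shows the lag in its levels. At ZT18 it stood at 36.8 ± 5.82 CPM in ileum (range 28.3 to 41.5) and 61.6 ± 5.27 CPM in duodenum (range 54.2 to 66.7), and at ZT2 at 64.6 ± 8.02 CPM in ileum (range 56.4 to 72.4) and 47.3 ± 4.61 CPM in duodenum (range 40.5 to 50.3; SD, n = 3 for ileum at ZT2, otherwise 4). The tissues did not overlap at either time, with the ileum lower on the way up and higher on the way down. Its peak was at ZT0.13 ± 0.40 h in ileum and at ZT22.3 ± 0.35 h in duodenum, a difference of 1.85 h (95% interval 0.77 to 2.92). Of the other activators and genes of the nuclear receptor loop, Npas2, the partner of BMAL1, peaked at ZT1.11 in ileum and ZT22.8 in duodenum. Nr1d1, which encodes REV-ERB alpha, peaked at ZT8.05 in ileum and ZT6.95 in duodenum, and its relative Nr1d2 at ZT11.6 in ileum and ZT9.37 in duodenum, with an interval above 0 for Nr1d2 (0.94 to 3.42 h). The repressor Nfil3 peaked at ZT22.9 in ileum and ZT21.5 in duodenum. Clock itself had ranges of 0.20 ± 0.06 log2 in ileum and 0.34 ± 0.06 log2 in duodenum and passed in duodenum (adjusted p = 0.000346) but not in ileum (0.142), with no tested difference. Bhlhe40, a repressor of E-box genes, likewise passed in duodenum only by its own test, with ranges of 0.53 ± 0.19 log2 in ileum and 1.16 ± 0.19 log2 in duodenum (p for the difference = 0.0443, adjusted 0.9999). Rora passed in neither tissue.

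Among the repressors, Cry1 had the widest gap, with peaks at ZT20.4 ± 0.73 h in ileum and ZT17.4 ± 0.61 h in duodenum (difference 3.001 h, 95% interval 1.07 to 4.93). At ZT2 its level was 31.1 to 47.3 CPM in ileum and 15.4 to 25.9 CPM in duodenum, without overlap, and at ZT10 it was 14.4 to 19.8 CPM in ileum and 22.8 to 27.04 CPM in duodenum, also without overlap. The order of the tissues thus turned round between ZT2, on the falling side of the curve, and ZT10, on the rising side. At ZT6, ZT14, ZT18 and ZT22 the tissues overlapped, as with 11.9 to 29.8 CPM in ileum and 10.1 to 37.6 CPM in duodenum at ZT6. Per3 peaked at ZT12.8 in ileum and ZT11.2 in duodenum, Per2 at ZT15.5 in ileum and ZT13.2 in duodenum, and Cry2 at ZT15.7 in ileum and ZT13.6 in duodenum, each with an interval above 0. Per1 peaked at ZT12.8 in ileum and ZT12.1 in duodenum, with an interval that included 0. Ciart, a repressor of CLOCK and BMAL1, had the largest ranges of the 21, 4.92 ± 0.62 log2 in ileum and 5.90 ± 0.63 log2 in duodenum. Its lowest level was 0.142 CPM in ileum and 0.0445 CPM in duodenum, so the size of these ranges rests on very low counts at the trough. Its peaks, at ZT11.5 in ileum and ZT11.0 in duodenum, also had an interval that included 0. The casein kinases Csnk1d and Csnk1e passed in neither tissue, and Fbxl21 passed in duodenum alone (adjusted p = 0.00416 there, 0.507 in ileum).

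**Figure D2:**
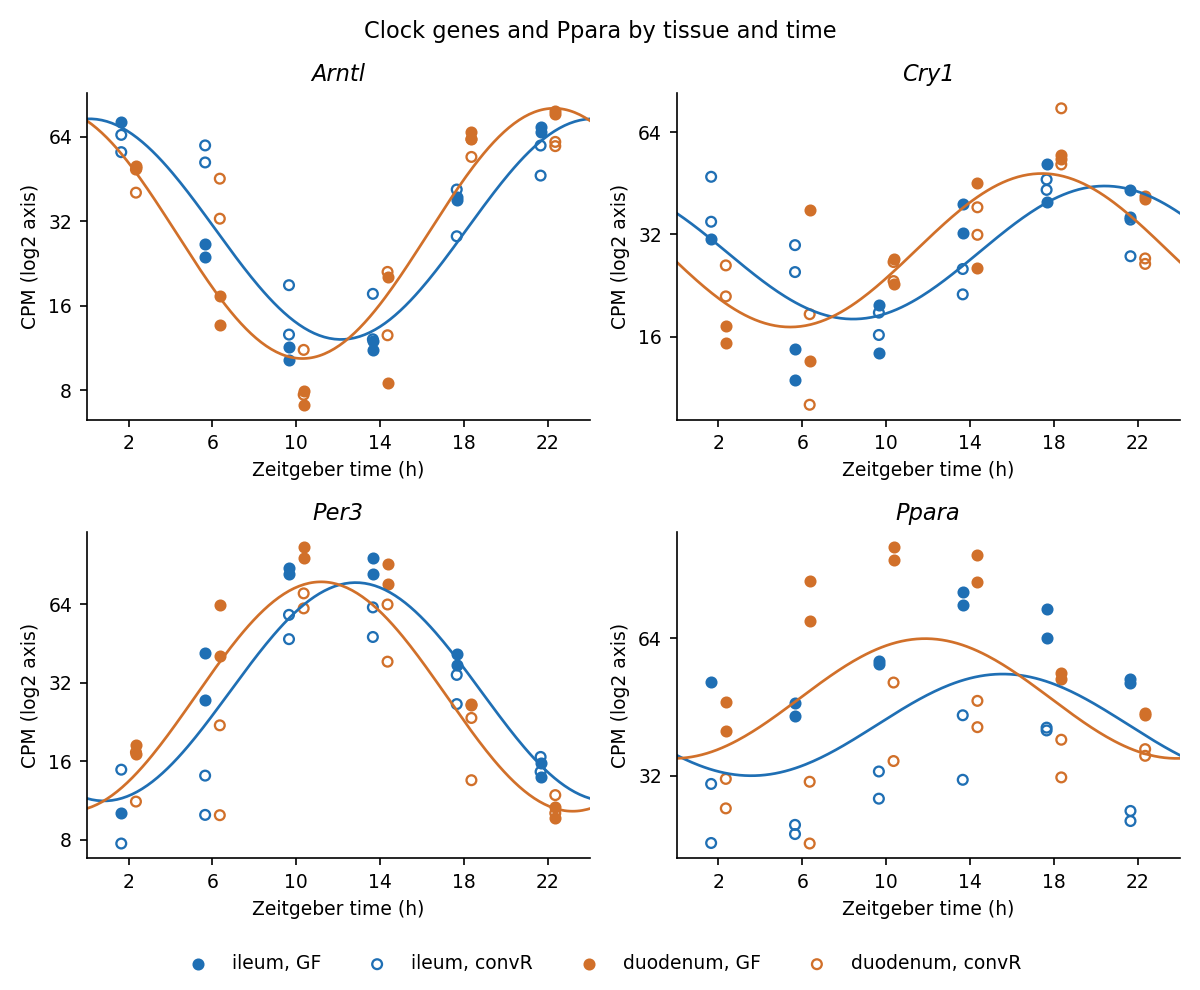
CPM (log2 axis) of Arntl, Cry1, Per3 and Ppara in each library by zeitgeber time, ileum in blue and drawn left of duodenum in orange, GF filled and convR open, with the fitted cosines. The ileum curves run later than the duodenum curves, by 1.85 h for Arntl, 3.001 h for Cry1, 1.65 h for Per3 and 3.70 h for Ppara.

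Among the output genes, 8 of 9 passed in both tissues, where 1.52% of all genes tested did. All 8 peaked later in ileum, by a median of 1.45 h. The PAR bZIP genes peaked in the order Dbp, Tef, Hlf, at ZT11.0, ZT12.8 and ZT13.2 in ileum and at ZT9.95, ZT11.2 and ZT11.9 in duodenum, and the interval lay above 0 for Tef alone among them (0.59 to 2.54 h). Dbp had ranges of 4.20 ± 0.50 log2 in ileum and 4.67 ± 0.49 log2 in duodenum. Usp2, a ubiquitin protease, and Wee1, a kinase that holds back entry into mitosis, peaked at ZT13.4 and ZT15.6 in ileum and at ZT12.0 and ZT13.7 in duodenum, with intervals above 0. Lonrf3, Tspan4 and Coq10b were later in ileum by 1.402, 1.22 and 2.01 h with intervals that included 0, and Dtx4 passed in neither tissue.

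**Figure D3:**
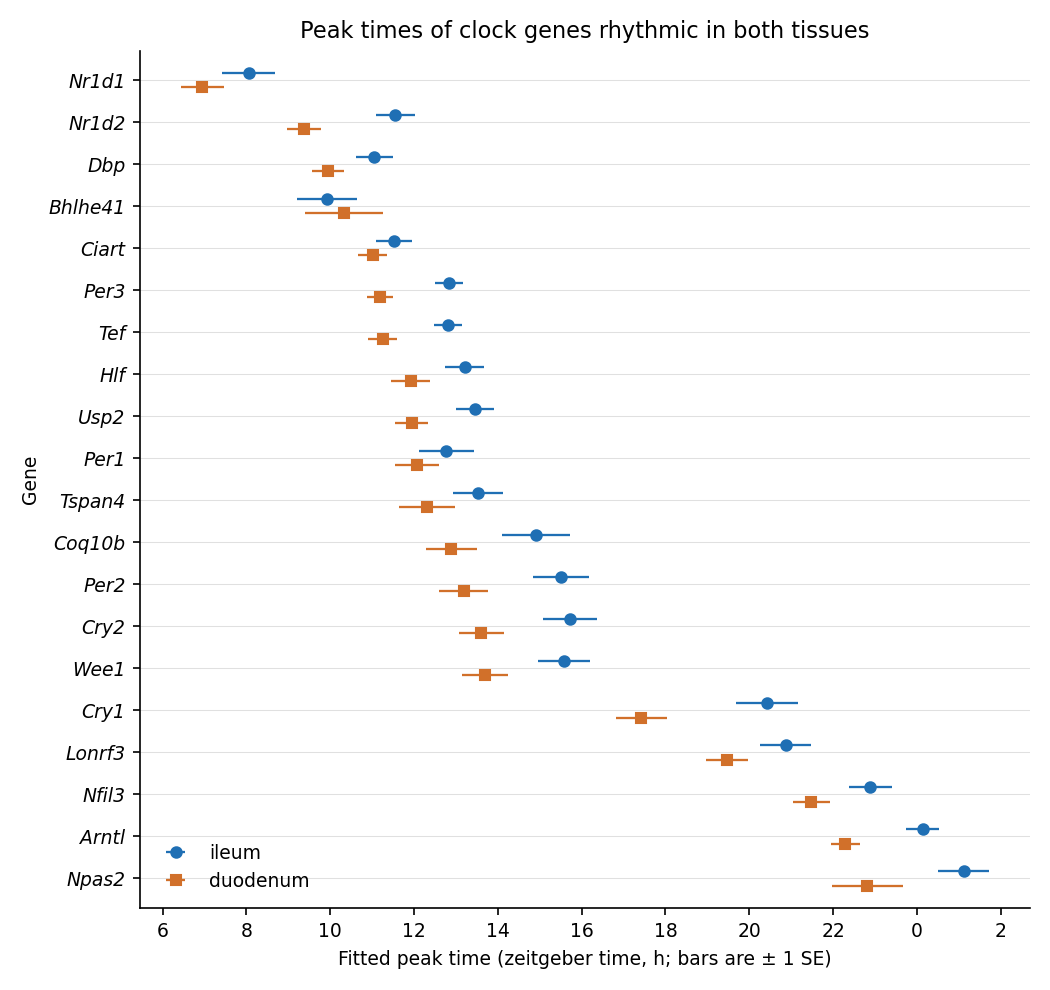
Fitted peak times (zeitgeber time, h; bars ± 1 SE) of 20 of the 21 clock genes that passed in both tissues, ileum (blue circles) above duodenum (orange squares) in each row. In each gene drawn except Bhlhe41 the ileum peak is later than the duodenum peak.

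The lag was present in both flora groups. Fitted in each, the median difference of the 21 clock genes was 1.34 h in GF and 1.96 h in convR libraries, with 20 of 21 later in ileum in either. Within ileum the median difference in peak time, GF minus convR, was -1.35 h, with 21 of 21 genes earlier in GF. Within duodenum it was -0.849 h, with 16 of 21 earlier in GF. The 21 genes share the same libraries, and a difference in peak time between GF and convR was not tested. Nr1d1 peaked at ZT7.64 in ileum and ZT7.57 in duodenum in GF mice, against ZT8.88 in ileum and ZT6.08 in duodenum in convR mice, and Dbp at ZT10.2 in ileum and ZT9.94 in duodenum in GF mice, against ZT12.4 in ileum and ZT9.96 in duodenum in convR mice. Nr1d1 and Dbp do not stand for the set. Their lags in GF lay below the lower quartile of the 21 genes in GF, 1.02 h. A test of whether the difference between the tissues itself differed between GF and convR was passed by 0 of 19000 genes (0%), with an unadjusted p under 0.05 in 448 genes (2.36%), and by 1 gene, Muc6, a stomach mucin, with DESeq2. The larger lag in convR libraries is therefore a description.

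The lag was not limited to the clock lists. Over the 289 genes that passed in both tissues the median difference was 1.31 h, with quartiles of 0.46 and 2.05 h, and 248 peaked later in ileum. The 95% interval lay above 0 in 83 genes (0.437% of all genes tested) and below 0 in 2, and it included 0 in 204. These genes too were measured in the same libraries and are not replicates, and the lag of the set was not tested. Without the 21 clock genes the median was 1.27 h, with 228 of 268 later in ileum. In GF libraries it was 1.02 h and in convR libraries 1.66 h over the 289. Leaving out 1 library at a time gave 1.06 to 1.61 h, and the fit without the 9 libraries that stood apart gave a median of 1 h. The median range was 0.69 log2 in both tissues, with a larger range in ileum in 141 of 289. Peaks in ileum were most frequent between ZT12 and ZT16 (78 genes) and between ZT0 and ZT4 (72 genes), while in duodenum they were most frequent between ZT20 and ZT24 (79 genes) and between ZT8 and ZT12 (76 genes).

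**Figure D4:**
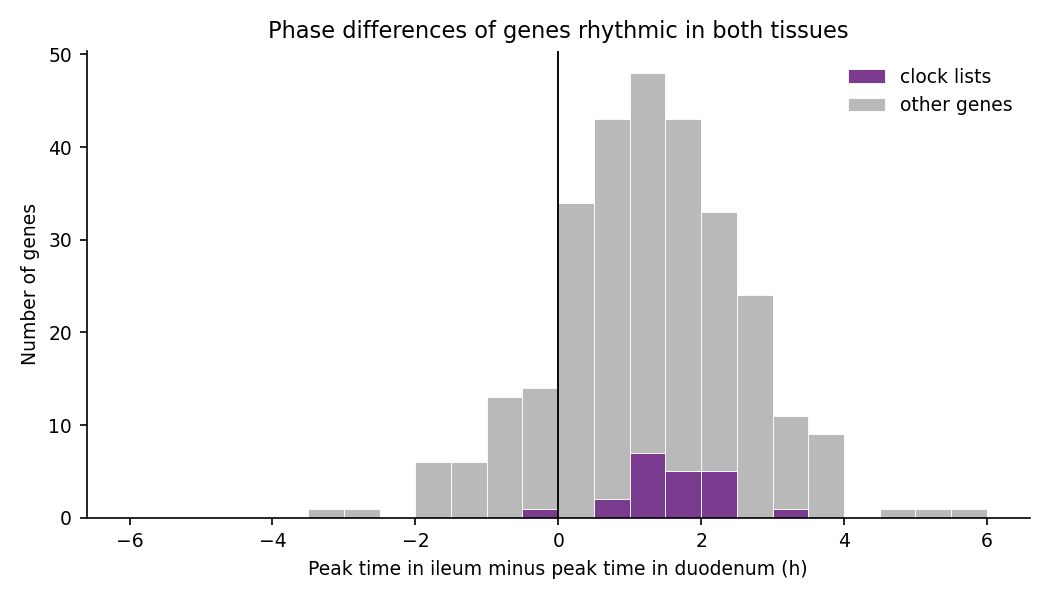
Number of genes by fitted peak time in ileum minus that in duodenum (h) for the 289 genes that passed in both tissues, with the 21 clock genes in purple and the other 268 in grey. The bars lie mostly right of 0, with 248 genes later in ileum and a median of 1.31 h.

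The most strongly rhythmic of these genes, by the larger of their 2 p-values, were Per3, Tef, Camta1, Arntl, Ciart, Spon2, Bok and Dbp. Camta1, a transcription activator that binds calmodulin, had means of 127 ± 4.66 CPM at ZT2 and 214 ± 35.9 CPM at ZT14 in ileum (SD, n = 3 and 4) and of 136 ± 7.49 CPM at ZT22 and 245 ± 38.7 CPM at ZT10 in duodenum (SD, n = 4 each). Its peaks were at ZT13.1 in ileum and ZT11.6 in duodenum. Spon2, a secreted matrix protein, peaked at ZT0.62 in ileum and ZT0.16 in duodenum with ranges of 2.09 ± 0.21 log2 in ileum and 1.67 ± 0.20 log2 in duodenum, a difference of 0.46 ± 0.58 h that did not exceed its error. The genes with the widest lags other than Marcksl1 were chosen after their values were seen. They include Fhl2 (5.16 h), Tnks1bp1 (4.65 h) and Mapre2, a microtubule end-binding protein (3.95 h), all with peaks earlier in duodenum and intervals above 0. The 2 genes whose interval lay below 0, Olfml2a (-3.22 h) and Thsd4 (-2.91 h), which both encode proteins of the extracellular matrix, were also singled out after seeing their values.

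The counts of each gene list stand against 2.27% of all genes tested that passed in ileum, 10.1% that passed in duodenum and 1.52% that passed in both, and no list was itself tested. Of 19 genes of sugar digestion, uptake and handling, all tested, 4 passed in ileum and 7 in duodenum, 3 of them in both, and none passed the test of a difference. Slc2a5, the fructose transporter GLUT5, had ranges of 1.70 ± 0.25 log2 in ileum and 1.07 ± 0.24 log2 in duodenum, with peaks at ZT10.6 in ileum and ZT9.44 in duodenum. G6pc, the catalytic subunit of glucose-6-phosphatase, peaked at ZT23.0 in ileum and ZT20.7 in duodenum with ranges of 2.74 ± 0.53 log2 in ileum and 2.10 ± 0.49 log2 in duodenum. Pfkfb4, which sets the level of an activator of glycolysis, was the third gene in both. Slc5a1, the sodium-glucose transporter SGLT1, averaged 1617 CPM in ileum and 2949 CPM in duodenum and passed in duodenum (adjusted p = 9.13e-05) but not in ileum (adjusted p = 0.138), with an unadjusted p of 0.0585 for the difference. Sis, sucrase-isomaltase, passed in ileum (adjusted p = 0.0410) and missed in duodenum (0.0695), with peaks at ZT12.0 in ileum and ZT9.46 in duodenum.

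Of 22 genes of fat absorption, 0 passed in ileum, where 2.27% of all genes did, and 4 in duodenum, where 10.1% did (Apoa1, Dgat2, Abca1, Acsl3), none with a tested difference. Abca1, the cholesterol exporter, had a range of 0.18 ± 0.39 log2 in ileum and of 2.43 ± 0.38 log2 in duodenum, where the level was 247 ± 146 CPM at ZT10 and 42.8 ± 28.7 CPM at ZT22 (SD, n = 4 each; adjusted p for the difference = 0.415). Of 25 tested genes of the PPAR alpha and fatty acid oxidation list, 1 passed in ileum and 5 in duodenum. That 1 gene in both was Ppara itself, the nuclear receptor that switches on fatty acid oxidation, which peaked at ZT15.6 ± 0.69 h in ileum and ZT11.9 ± 0.58 h in duodenum with ranges of 0.74 ± 0.14 log2 in ileum and 0.87 ± 0.13 log2 in duodenum. The difference of 3.70 h (SE 0.90) had an unadjusted p of 0.0011 and an adjusted p of 0.484. Fitted on GF libraries alone Ppara passed, with an adjusted p of 0.00136, and there it peaked at ZT15.4 in ileum and ZT10.8 in duodenum, against ZT15.7 in ileum and ZT14.5 in duodenum in convR libraries.

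Beside the same shares of all genes, 2.27% in ileum and 10.1% in duodenum, 0 of 19 genes for peptide and amino acid uptake passed in ileum and 4 in duodenum, among them Slc15a1, Slc6a19 and Enpep. Slc15a1, the peptide transporter PEPT1, had ranges of 0.55 ± 0.29 log2 in ileum and 1.09 ± 0.27 log2 in duodenum, and Slc6a19, a neutral amino acid transporter, of 0.55 ± 0.20 log2 in ileum and 0.89 ± 0.19 log2 in duodenum. In ion and water transport, 2 of 15 tested genes passed in ileum and 5 in duodenum, and 2 passed in both. Atp1b1, the beta subunit of the sodium pump, had ranges of 0.62 ± 0.10 log2 in ileum and 0.67 ± 0.10 log2 in duodenum, with peaks at ZT12.2 in ileum and ZT10.6 in duodenum. The difference of 1.58 ± 0.85 h had an interval that included 0.

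Of 20 genes of ribosome biogenesis 0 passed in ileum, against 2.27% of all genes, and 7 in duodenum, against 10.1% of all genes, with median ranges of 0.21 log2 in ileum and 0.30 log2 in duodenum. Ncl, nucleolin, and Nop56, a core nucleolar protein, had duodenum peaks at ZT12.1 and ZT13.2. Of 28 cell division genes 1 passed in ileum and 6 in duodenum, and the 1 in both was Ccne1, cyclin E1, with peaks at ZT13.4 in ileum and ZT12.2 in duodenum. Neither list held a gene that passed the test of a difference.

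The counts that follow again stand against 2.27% of all genes in ileum and 10.1% in duodenum, and several lie near those shares. Of all genes tested, 4.57% had an unadjusted p under 0.05 for the difference in edgeR's test. Of 19 tested antimicrobial and epithelial defence genes 0 passed in ileum and 5 in duodenum, among them Nos2, Duoxa2 and Pigr, and 3 had an unadjusted p under 0.05 for the difference. In duodenum Nos2 had a median of 1.53 CPM and a highest value of 715 CPM, and Duoxa2 a median of 0.994 CPM and a highest value of 192 CPM. Of 14 glucocorticoid response genes 12 were tested, 3 passed in ileum and 3 in duodenum, and 2 passed in both, Tsc22d3 and Klf9, with lags of 0.69 ± 1.22 and 1.84 ± 1.25 h in ileum. Gut hormones (13 genes), MHC class II (10) and stem cell and Wnt genes (13) had no call in either tissue by edgeR's test, and no unadjusted p under 0.05 for the difference. Of 19 immediate early genes 0 passed in ileum and 3 in duodenum (Jun, Klf4, Dusp1), of 25 cholesterol genes 2 passed in each with Pmvk in both, and of 30 drug metabolism genes 1 passed in ileum and 3 in duodenum with Ces1d in both. The 4 tested stomach and Brunner gland markers all passed for a rhythm in duodenum and not in ileum, with a median range of 9.45 log2 in duodenum. The mean over all 11 listed stomach markers reached 1585 CPM at ZT14, 456 CPM at ZT22 and at most 38.3 CPM at the other times. Each of the 2 highest values came from a single library. These were convR replicate 1 at ZT14 (at most 1.22 CPM in the others at that time) and GF replicate 2 at ZT22 (at most 3.71 CPM in the others). The calls of these markers leaned on those libraries. The part of these markers in the rhythm calls of duodenum was not tested gene by gene. Without the 9 libraries 1750 genes passed in duodenum and 676 in ileum.

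**Figure D5:**
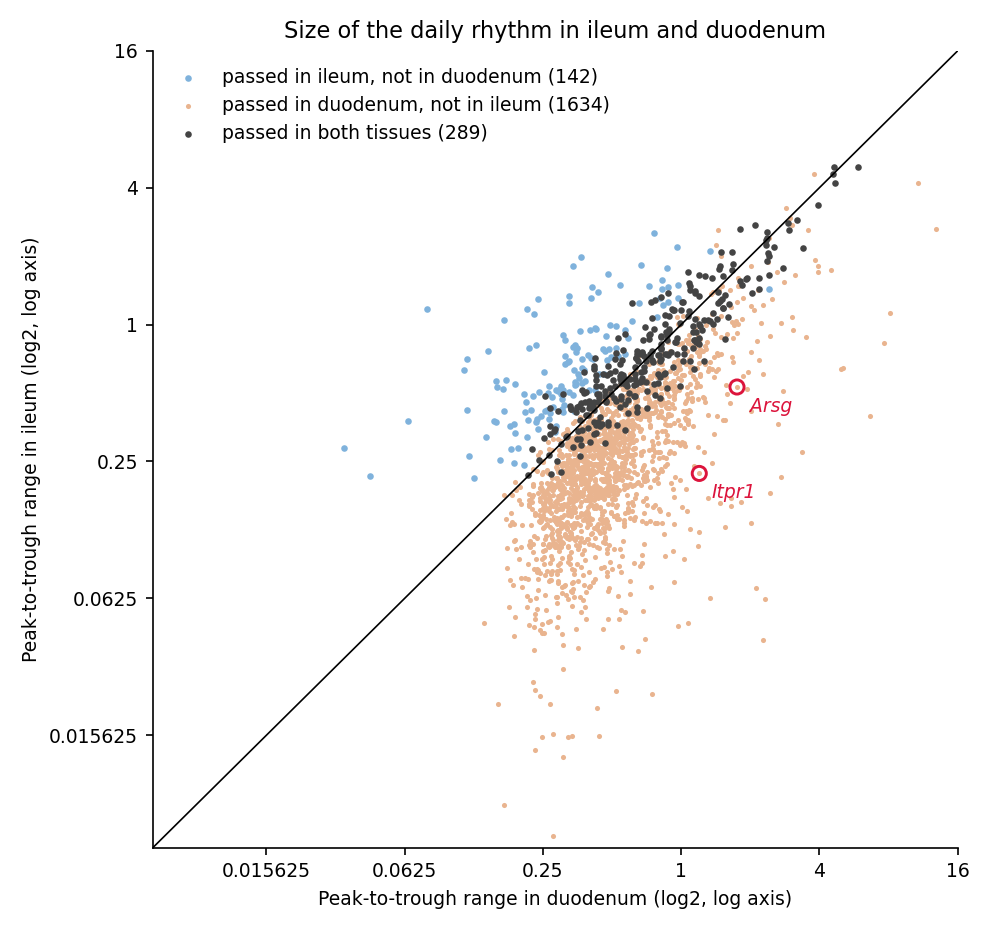
Fitted peak-to-trough range (log2, log axes) in ileum (vertical axis) against that in duodenum (horizontal axis) for genes that passed for a rhythm in at least 1 tissue. Black points passed in both (289), blue in ileum and not duodenum (142), orange in duodenum and not ileum (1634); red circles mark Itpr1 and Arsg, both below the line of equal ranges.

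The 1634 genes that passed in duodenum and not in ileum had median ranges of 0.24 log2 in ileum and 0.45 log2 in duodenum, and the 142 that passed in ileum and not in duodenum had 0.63 log2 in ileum and 0.32 log2 in duodenum. These sizes follow from how the genes were picked. Of the 1634, 2 passed the test of a difference and 381 (23.3%) had an unadjusted p under 0.05, and of the 142, none passed and 45 (31.7%) had an unadjusted p under 0.05. The share was 4.57% over all genes tested and 22.15% among the 289 genes that passed in both tissues. All these genes were picked by tests from the same fit, so their shares are a description. For all but 2 of these genes a call in 1 tissue is therefore not a shown difference between the tissues.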

How the data were processed

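Total RNA was depleted of ribosomal RNA and sequenced as stranded libraries, per the labels' protocols, and aligned with STAR 2.4.0i to mm10, per the submitters' processing notes. The deposited values are raw exon counts per gene. Which program counted them, on which annotation and with which strand setting, is not given in the sources used here. Of 38087 genes, 36308 were matched by identifier to GENCODE M21 for symbols.

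Counts were analysed in R 4.3.3 with edgeR 4.0.16: TMM scaling, a filter at a minimum count of 10 (19000 genes kept), robust quasi-likelihood F tests and Benjamini-Hochberg adjustment over all genes at 5%. Terms were 4 means (tissue by flora) and a 24 h cosine and sine in each tissue. The spread of each gene was estimated over both tissues together. Peak times, ranges, their SE and 95% intervals come from this fit by the delta method. The intervals are not adjusted for the number of genes. Alternatives used limma 3.58.1 and DESeq2 1.42.0. On simulated counts of 18900 genes the difference test recovered 25.4%, 64.2% and 95.5% of changes of 0.5, 1 and 2 log2. The simulated libraries were independent, with the same dispersion for both tissues, and changes were put only into genes with a mean of at least 2 CPM. Recovery in the real libraries may differ.

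Named genes are the 12 smallest p for the difference, the 8 smallest joint p among genes rhythmic in both tissues, all clock genes, up to 3 members per list, and genes named beside a count. Genes under a mean of 2 CPM, predicted genes and pseudogenes were left out of the ranked choices. The comparison, the gene lists and the rule for libraries that stand apart (pancreas or stomach marker mean over 100 CPM, TMM factor over 1.2 within the tissue, or Fabp6 under 1000 CPM in ileum) were chosen with earlier results of these data known. Separate animals are not stated in the labels, and p-values then rest only on the spread between these samples, which may be technical. Of 23 replicate pairs none agreed within sampling noise (chi-square per degree of freedom from 16.9). Equal replicate numbers in ileum and duodenum were checked as pairs by the correlation of their deviations, which was -0.03 to 0.28 in GF and 0.22 to 0.59 in convR; they were not taken as pairs. Some genes that the rule would name are not reported here.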

Additional observations from a re-analysis of the deposited data

Results flagged for a closer look

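Itpr1 and Arsg were the 2 genes whose daily curve in ileum differed from that in duodenum by the test of the difference itself. The peak-to-trough range of the difference between the curves was 1.02 log2 for Itpr1 and 2.01 log2 for Arsg, each with an adjusted p of 5.82e-05 in edgeR's quasi-likelihood test. Leaving out any 1 of the 47 libraries gave 0.974 to 1.09 log2 for Itpr1 and 1.94 to 2.13 log2 for Arsg, with adjusted p-values of 0.000314 at most for either gene.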

How the results depend on the processing

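The 2 genes with a tested difference, Itpr1 and Arsg, passed in every alternative run on libraries of both flora groups, and missed the threshold with GF or convR libraries alone. The number of genes that passed was 4 with scaling by library size, 7 with DESeq2's likelihood ratio test, 4 with marker covariates, 5 with limma-voom and a variance for each tissue (an alternative chosen after seeing the data), 13 without the libraries that stood apart, 4 in GF alone and 0 in convR alone (568 at an unadjusted p under 0.05 in edgeR's test). Genes rhythmic in ileum numbered 658 with DESeq2, 754 with limma-voom, 676 without the libraries that stood apart and 663 fitted alone, and 172 in GF and 15 in convR. Genes rhythmic in duodenum numbered 1026 fitted alone, 836 in GF and 196 in convR. Genes called in both tissues without a tested difference numbered 117 in GF and 12 in convR. The tissue fits alone were chosen after seeing the data. Genes with a tested difference that passed in duodenum and not in ileum numbered 4 with library size, 5 with DESeq2, 4 with marker covariates, 5 with limma-voom, 13 without the libraries that stood apart and 0 in convR; genes with a tested shift of 2 h or more numbered 2 with DESeq2 and 2 in GF. The difference by flora was passed by 1 gene with DESeq2.

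Leaving out 1 library at a time, 2 to 6 genes passed the difference: 6 without convR ileum ZT6 replicate 1 or convR duodenum ZT2 replicate 2, and 4 without convR duodenum ZT6 replicate 1, convR duodenum ZT22 replicate 2 or GF duodenum ZT6 replicate 2. Of these, 2 to 5 passed in duodenum alone, 0 to 1 in ileum alone, 0 to 1 were shifted and 0 to 1 changed in size only, and 0 to 1 passed the difference by flora (Asz1, without convR duodenum ZT14 replicate 2). Over the alternatives that gave peak times, the fits on GF or convR libraries alone included and the block fits not, the median phase difference lay between 1.34 and 1.92 h for the clock genes and between 0.993 and 1.69 h for the genes rhythmic in both tissues. With equal replicate numbers entered as a replicate block, 13 genes passed the difference, led by Per3 and Arntl (adjusted p = 0.000613 each) and with Itpr1, Arsg and Tef among them; within convR alone the block gave 2, Nox1 and Dbp. The numbers were not shown to pair the samples. In the self-test of the difference 25.4% of differences of 0.5 log2 were recovered, 64.2% of 1 log2 and 95.5% of 2 log2.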
